A study of Arabidopsis thaliana with 9 samples.

Results

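Leaves of the bio4-1 mutant of Arabidopsis thaliana were compared with wild type leaves, both from plants given water only. The members were chosen by their labels alone: 3 arrays of bio4-1 without added biotin and 3 arrays of wild type, 6 of the 9 arrays in the series. All plants were of the Col-0 ecotype and 5 weeks old, and each sample was rosette leaf RNA pooled from 5 plants. In bio4-1, the biotin synthesis gene BIO4 carries a T-DNA insertion in its 5′ UTR. The remaining 3 arrays carried RNA of bio4-1 watered with 200 µM D-biotin and entered the fit to estimate the spread between arrays. They also entered the mean level by which the probe set of a gene was chosen. The labels give no other allele of BIO4, so an effect of the insertion and of anything else that differs in the mutant line cannot be told apart. BIO4 itself was not analysed here, because the annotation used pairs no probe set with it.

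Biotin is the cofactor that carries the carboxyl group in biotin-dependent carboxylases. In plants these enzymes include acetyl-CoA carboxylase, which makes the malonyl-CoA used for fatty acids, and 3-methylcrotonyl-CoA carboxylase, which takes part in the breakdown of leucine. Plants make their own biotin. Transcripts were measured on the Affymetrix ATH1 array, which reads each transcript with several short probes, and all values are log2 expression values. A difference of 1 on this scale is a 2-fold difference.

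The arrays numbered 1, here called the array 1 pair for wild type and bio4-1, stood apart from arrays 2 and 3. Over all probe sets, the 6 pairs among wild type and bio4-1 arrays 2 and 3 correlated at 0.987 to 0.997, the 8 pairs with a single array 1 at 0.958 to 0.972, and the array 1 pair at 0.95. Wild type array 1 correlated with array 1 of the biotin-watered bio4-1 at 0.994, against 0.967 and 0.962 with the other wild type arrays. The actin control probe sets, which compare the ends of a transcript, gave a 3′ minus 5′ difference of 3.67 and 3.75 on the array 1 pair and 2.47 to 2.76 on the others. Among arrays 2 and 3 that difference was 2.59 and 2.47 in wild type and 2.69 and 2.76 in bio4-1. The GAPDH controls gave 1.55 on wild type array 1 and 2.24 on bio4-1 array 1, and 0.98 and 0.60 in wild type against 0.88 and 0.69 in bio4-1 on arrays 2 and 3. The ubiquitin controls, at 1.48 to 1.72 on the 6 arrays, did not set array 1 apart. The part of RNA quality in the results was not tested. The leaf identity of the samples was visible in the 3 measured mesophyll markers RCA, PRK and SBPASE, whose mean level was 12.80 to 12.87 in wild type and 12.79 to 12.85 in bio4-1. The 2 root markers stayed at 3.3 to 3.56 on every array. FMA, a guard cell regulator, read 6.33 to 6.50 in wild type and 5.79 to 6.76 in bio4-1, and the 2 trichome genes averaged 6.56 to 7.10 and 6.35 to 6.48. No epidermis, phloem, xylem or seed marker had a probe set that the annotation used here ties to 1 gene, and measured list genes are those that have one. In bulk leaf RNA, fewer cells of a type and less RNA per cell cannot be told apart.

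Each change is therefore given over all arrays, then for arrays 2 and 3 and for the array 1 pair apart, where a single array a group allows no test. Over all arrays, 5 of 13356 genes were higher in bio4-1 (0.0374%) and 0 were lower (0%) at a limma adjusted p under 0.05. At an unadjusted p under 0.05, limma gave 882 of the 13356 genes, 446 higher and 436 lower. With no difference at any gene, a share of 0.05 would pass that threshold on average. On arrays 2 and 3 alone, 254 genes rose (1.9%) and 199 fell (1.49%), again by limma at an adjusted p under 0.05. Leaving out a single array, in the order wild type 2, wild type 3, bio4-1 2 and bio4-1 3, cut these counts to 13, 5, 4 and 34 higher and 5, 4, 3 and 25 lower genes. Without the biotin-watered arrays the counts were 60 and 47, and the same when either of the biotin-watered arrays 2 and 3 was left out. The weakest call upward was AT3G13672 with a difference of 0.79 and a limma adjusted p of 0.0499, and the first gene outside was AT4G04790 with 0.67 and 0.0502. Downward these were AT1G06980 with −0.56 and 0.0499, and AT1G28100 with −0.53 and 0.0506 by limma.

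Each called gene was then read on the array 1 pair. Of the 254 raised genes, 217 (85.4%) were also higher in bio4-1 on the array 1 pair, 137 (53.9%) by at least 1, and 8 (3.15%) were lower by at least 1. Of the 199 lowered genes, 111 (55.8%) were also lower there, 42 (21.1%) by at least 1, and 28 (14.1%) were higher by at least 1. Over all genes, 42.5% were higher and 55.9% lower on the array 1 pair, and 4.6% and 4.09% were so by at least 1. The median difference of the raised genes was 0.89 on arrays 2 and 3 and 1.12 on the array 1 pair, and that of the lowered genes was −0.78 and −0.13. All-gene medians were −0.02 and −0.05.

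The 137 recurring rises were 1.03% of all genes and the 42 recurring falls 0.314%. Of all 254 raised genes, 147 had a larger difference on the array 1 pair than on arrays 2 and 3, and of all 199 lowered genes 51 had a larger fall there. Among the 137 recurring rises, bio4-1 array 1 lay at least 1 above both other bio4-1 arrays for 63, against 308 of all 13356 genes. Wild type array 1 lay at least 1 below both other wild type arrays for 19 of the 137, against 472 of all genes. The choice of the 137 partly fixes both counts, because their array 1 pair had to differ by at least 1. The recurring rises began from a median wild type level of 5.44, and the falls from 7.57, against 5.51 over all genes.

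**Figure D1:**
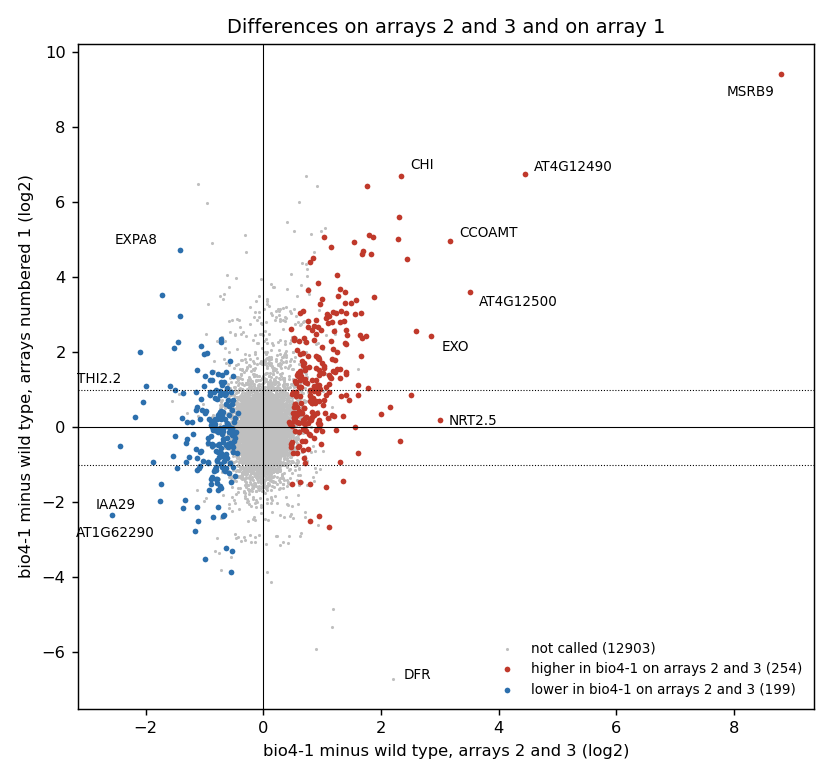
Difference between bio4-1 and wild type in log2 units on arrays 2 and 3 (horizontal axis) and on the array 1 pair (vertical axis), 1 point a gene. Red points mark the 254 genes higher and blue points the 199 genes lower in bio4-1 on arrays 2 and 3, and dotted lines mark a difference of 1 in size: most red points lie above 0 on the vertical axis, while blue points lie on either side of it.

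MSRB9, a methionine sulfoxide reductase gene at AT4G21850, was the most changed transcript. These enzymes return oxidised methionine in proteins to methionine. Wild type arrays 1, 2 and 3 read 4.72, 5.70 and 4.70 for MSRB9, and the bio4-1 arrays read 14.12, 14.02 and 13.97. The lowest mutant value stood 8.28 above the highest wild type value. The difference over all arrays was 9.0 ± 0.26 (SE, n = 3 a group; limma adjusted p = 1.34e-05), and it was 8.80 on arrays 2 and 3 and 9.4 on the array 1 pair. On each bio4-1 array 2 of the 22746 probe sets, its own among them, read at or above MSRB9, and in wild type 12049 to 14170 did. A level that near the top of the array range may understate the difference.

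Of the other 4 measured methionine sulfoxide reductase genes, none was higher in bio4-1 on arrays 2 and 3, and 2 fell. Among all genes, 1.9% rose and 1.49% fell there. MSRB6 read 5.48, 9.75 and 10.14 on the wild type arrays and 7.60, 8.45 and 8.42 on the bio4-1 arrays. It fell by 1.51 ± 0.15 on arrays 2 and 3 (SE, n = 2 a group; limma adjusted p = 0.00478), against a difference of 2.12 on the array 1 pair, where wild type array 1 was the lowest of all 6. MSRB5 read 7.76, 9.51 and 9.28 in wild type and 7.90, 8.26 and 8.11 in bio4-1, and fell by 1.21 ± 0.12 on arrays 2 and 3 with a difference of 0.14 on the array 1 pair. Over all arrays MSRB5 and MSRB6 differed by −0.76 and −0.30, with limma adjusted p of 0.806 and 0.993, and their groups overlapped. MSRB3 and MSRA5 differed by −0.33 and −0.17 on arrays 2 and 3 and did not pass.

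**Figure D2:**
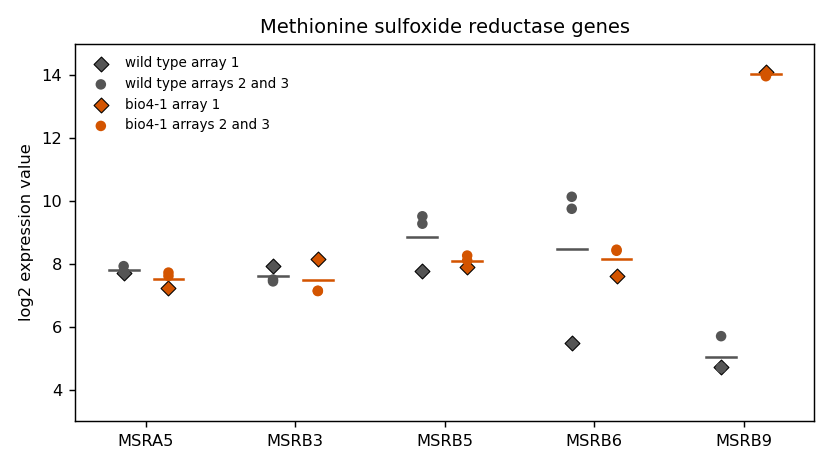
Log2 expression values of the 5 measured methionine sulfoxide reductase genes (horizontal axis) on each array, wild type in grey and bio4-1 in orange, with diamonds for array 1, circles for arrays 2 and 3 and lines for the mean of 3. MSRB9 lies near 14 on every bio4-1 array and at or below 5.70 in wild type, and wild type array 1 lies below arrays 2 and 3 for MSRB5 and MSRB6.

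The other 4 genes that passed on all arrays carry locus codes only. AT4G12500, of a cluster of lipid transfer protein genes, read 3.42, 3.36 and 3.3 in wild type and 7.03, 6.32 and 7.36 in bio4-1. It rose by 3.54 ± 0.37 over all arrays (limma adjusted p = 0.0381). AT2G17740 read 4.63, 4.49 and 4.89 in wild type and 7.19, 7.21 and 7.35 in bio4-1, a rise of 2.58 ± 0.23 (limma adjusted p = 0.0217). The gap between the groups was 2.90 for AT4G12500 and 2.3 for AT2G17740, and the mutant values of AT2G17740 had an SD of 0.08 (n = 3).

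AT3G60580 read 3.62, 3.62 and 3.69 in wild type and 4.78, 4.73 and 4.82 in bio4-1, a rise of 1.13 ± 0.10 (limma adjusted p = 0.0217). AT2G15760 read 5.91, 5.81 and 5.72 in wild type and 6.60, 6.71 and 6.62 in bio4-1, a rise of 0.83 ± 0.08 (limma adjusted p = 0.0364). All 5 genes also passed on arrays 2 and 3. Over all arrays AT2G15760 missed the threshold with quantile normalization, median centring and an intensity trend (limma adjusted p of 0.0572, 0.0722 and 0.14), and with a replicate block AT2G15760 and AT4G12500 each had a limma adjusted p of 0.0588. In a fit of the 2 groups alone, MSRB9 and AT2G17740 kept their calls. With any wild type or water-grown bio4-1 array left out, only MSRB9 of the 5 kept its call on all arrays.

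Where groups were compared by their raw order, 741 genes (5.55%) had all 3 bio4-1 values above all 3 wild type values and 915 (6.85%) had them below. With a gap of at least 1 between the groups, 30 genes (0.225%) lay above and 2 (0.015%) below. All 30 had also passed on arrays 2 and 3, which the gap, taken over the same arrays, largely fixes. The 2 below were AT1G62290 and AT5G03230. Those above held 10 genes with a name beyond a locus code: MSRB9, CCOAMT, PDF1.4, CHI, WRKY47, SAL2, WRKY6, OSM34, GRX480 and ATPMEPCRB.

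The 15 largest rises that recurred on the array 1 pair held 4 genes with a symbol: MSRB9, CCOAMT, EXO and CHI. AT4G12490, of the same lipid transfer protein cluster as AT4G12500, read 4.12, 4.50 and 4.48 in wild type and 10.85, 8.45 and 9.43 in bio4-1. It rose by 4.45 ± 0.29 on arrays 2 and 3 (SE, n = 2 a group; limma adjusted p = 0.00133) and differed by 6.73 on the array 1 pair. CCOAMT, a caffeoyl-CoA O-methyltransferase gene, read 3.81, 5.07 and 4.39 in wild type and 8.77, 7.95 and 7.87 in bio4-1. Its rise was 3.18 ± 0.28 on arrays 2 and 3 (limma adjusted p = 0.00419), with 4.96 on the array 1 pair. The gaps between the groups were 3.95 for AT4G12490 and 2.80 for CCOAMT, and bio4-1 array 1 was the highest of the 6 arrays for each.

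CHI, at AT2G43570, a putative gene of chitinase, an enzyme that cuts the chitin of fungal cell walls, read 4.86, 5.46 and 3.95 in wild type and 11.54, 7.34 and 6.76 in bio4-1. Its rise of 2.34 ± 0.48 on arrays 2 and 3 was near the threshold (limma adjusted p = 0.0432), and the difference on the array 1 pair was 6.68. EXO, a gene that promotes growth and responds to brassinosteroids, read 4.28, 5.98 and 6.66 in wild type and 6.70, 9.47 and 8.86 in bio4-1. It rose by 2.85 ± 0.25 (limma adjusted p = 0.00441) on arrays 2 and 3 and differed by 2.42 on the array 1 pair, and the gap between the groups was 0.04 because array 1 was the lowest of each group.

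AT1G51890, of a cluster of leucine-rich repeat kinase genes, read 4.14, 4.59 and 3.96 in wild type and 9.73, 6.78 and 6.37 in bio4-1. It rose by 2.3 ± 0.23 on arrays 2 and 3 (limma adjusted p = 0.00478), with 5.59 on the array 1 pair. AT1G26390, of a cluster of berberine bridge oxidase genes, read 3.27, 4.12 and 3.5 in wild type and 9.70, 5.63 and 5.51 in bio4-1, with a rise of 1.76 ± 0.26. Its neighbour AT1G26380 read 3.48, 3.96 and 3.95 in wild type and 8.54, 5.98 and 5.65 in bio4-1, with a rise of 1.86 ± 0.15. For these 3 genes every bio4-1 array lay above every wild type array, and bio4-1 array 1 lay over 2 above the other bio4-1 arrays.

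The remaining 5 of the 15, AT3G18250, AT1G65500, AT1G21520, AT4G00700 and AT2G18690, rose by 1.79 to 2.44 on arrays 2 and 3 and differed by 3.45 to 5.13 on the array 1 pair. All 15 had no overlap between the groups, against 5.55% of all genes, which the choice of the 15 largely fixes. With a single array left out, wild type 2, wild type 3, bio4-1 2 and bio4-1 3 in turn, 6, 3, 3 and 8 of the 15 kept their call on arrays 2 and 3, MSRB9 each time. In 12 of the 15, bio4-1 array 1 was the highest of the bio4-1 arrays.

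**Figure D3:**
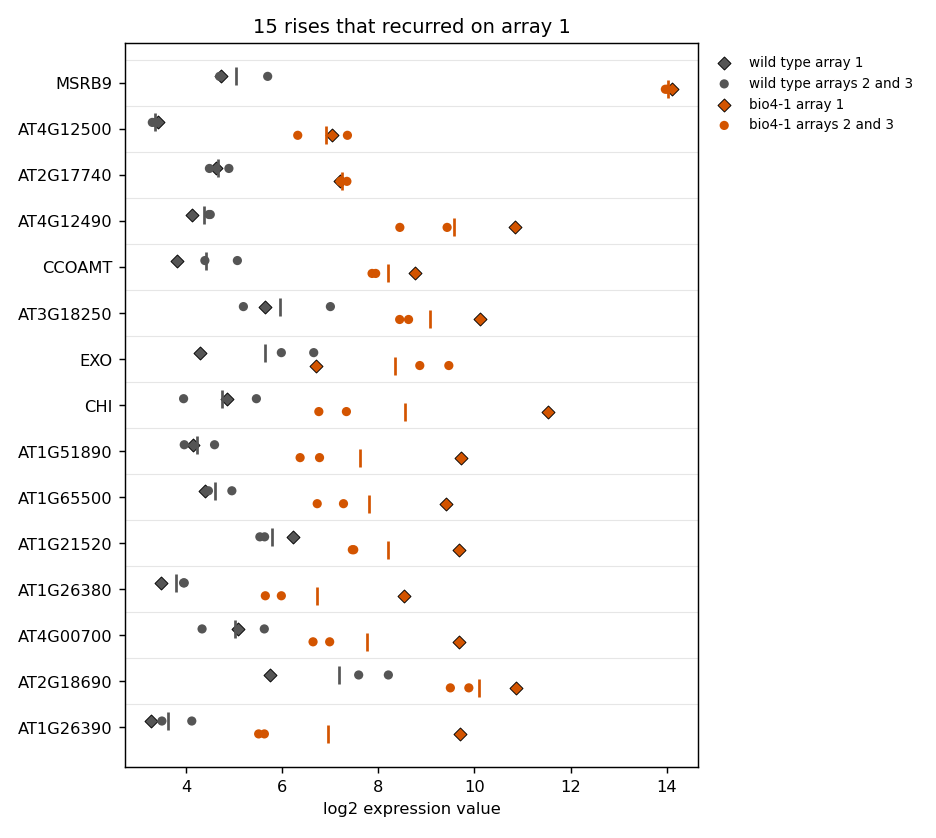
Log2 expression values (horizontal axis) of the 15 largest rises on arrays 2 and 3 that were also higher in bio4-1 by at least 1 on the array 1 pair, wild type in grey and bio4-1 in orange, with diamonds for array 1, circles for arrays 2 and 3 and ticks for the mean of 3. All bio4-1 values lie to the right of all wild type values of the same gene, and the orange diamond is the furthest right in 12 of the 15.

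The named genes among the recurring rises were 26 in all, and those outside the 15 largest and the gene lists were chosen after their values were seen. WRKY47, a transcription factor gene, read 5.76, 5.50 and 5.56 in wild type and 8.18, 7.52 and 7.03 in bio4-1, and rose by 1.75 ± 0.17 on arrays 2 and 3 (limma adjusted p = 0.00478). PDF1.4, a defensin-like gene, read 4.08, 4.56 and 4.32 in wild type and 5.98, 5.99 and 6.22 in bio4-1, a rise of 1.66 ± 0.17. GRX480, a glutaredoxin gene induced by salicylic acid, read 5.24, 5.89 and 5.37 in wild type and 8.64, 7.40 and 7.01 in bio4-1, a rise of 1.58 ± 0.25. Of these, PDF1.4 was the most even across the bio4-1 arrays, whereas GRX480 was highest on array 1.

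OSM34, an osmotin-like gene, rose by 1.27 on arrays 2 and 3 and differed by 3.5 on the array 1 pair. BIK1, a cytoplasmic kinase of immune signalling, rose by 0.67 and differed by 1.66, and SAL2, a phosphatase gene, rose by 1.7 and differed by 4.69. The glutamate receptor-like genes GLR2.8 and GLR1.4 rose by 1.00 and 0.73, and the triterpene synthase gene LUP5 by 0.80, with differences of 3.42, 2.27 and 4.41 on the array 1 pair. LUP5 read 7.86 on bio4-1 array 1 and 4.21 and 4.18 on bio4-1 arrays 2 and 3, so its size rests on that array. The cytochrome P450 genes CYP71B23 and CYP71B36 rose by 1.3 and 0.75, and the glycosyltransferase genes UGT71B6 and UGT87A2 by 1.25 and 0.70.

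The named rises also held genes of the cell wall and a gene of ion transport, with no list behind this grouping. The pectin methylesterase gene ATPMEPCRB read 3.09, 4.62 and 4.99 in wild type and 6.10, 6.27 and 6.45 in bio4-1, and rose by 1.55 ± 0.19 on arrays 2 and 3 (limma adjusted p = 0.00842). The cell wall invertase family gene cwINV6 rose by 1.22, the mannan synthase family gene CSLA03 by 1.02, and THE1, a receptor kinase that senses the cell wall, by 0.92. For CSLA03 and THE1 the groups overlapped over all 6 arrays, because array 1 was the lowest of each group. CHX16, of the cation/proton exchangers, rose by 1.18 with 1.5 on the array 1 pair. TRM19 and ZCF37, of neither group, rose by 0.83 and 0.48.

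AT1G62290, an aspartic protease gene, had the largest fall on arrays 2 and 3. It read 6.90, 7.71 and 7.97 in wild type and 4.55, 5.34 and 5.20 in bio4-1, with no overlap and a gap of 1.56 between the groups. It fell by 2.57 ± 0.18 on arrays 2 and 3 (SE, n = 2 a group; limma adjusted p = 0.0017), and the difference was −2.35 on the array 1 pair and −2.50 over all arrays. IAA29, of the Aux/IAA repressors of auxin response, read 6.39, 7.24 and 7.44 in wild type and 4.41, 5.31 and 5.87 in bio4-1. It fell by 1.75 ± 0.20 (limma adjusted p = 0.00685), with −1.98 on the array 1 pair. In each of these 2 genes array 1 was the lowest of its group, and the difference between genotypes was alike in size on array 1 and on arrays 2 and 3.

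COR15A, which encodes a chloroplast protein made in the cold, read 12.10, 12.10 and 12.35 in wild type and 9.98, 11.37 and 10.84 in bio4-1. It fell by 1.12 ± 0.18 on arrays 2 and 3 (limma adjusted p = 0.0199), with −2.13 on the array 1 pair. PUB19, a U-box ubiquitin ligase of drought and abscisic acid responses, read 8.47, 7.24 and 6.44 in wild type and 6.32, 5.50 and 5.45 in bio4-1. TINY2, a gene of the DREB transcription factors, read 7.53, 5.77 and 5.63 in wild type and 4.78, 4.44 and 4.65 in bio4-1. PUB19 and TINY2 fell by 1.36 ± 0.23 and 1.16 ± 0.14 on arrays 2 and 3, with limma adjusted p of 0.0223 and 0.00932, and for each wild type array 1 was the highest of the 6 arrays.

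AT5G03230 read 7.86, 7.80 and 7.56 in wild type and 6.35, 5.49 and 6.38 in bio4-1, and fell by 1.74 ± 0.29 on arrays 2 and 3 with no overlap. The other 9 of the 15 largest recurring falls carry locus codes only: AT3G16800, AT4G23670, AT2G40435, AT1G79160, AT5G62280, AT5G01790, AT5G15190, AT5G12050 and AT4G33960. Their differences were −0.89 to −1.46 on arrays 2 and 3 and −1.04 to −3.52 on the array 1 pair. In 13 of the 15 the groups did not overlap, against 6.85% of all genes, which the choice of the 15 largely fixes, and in AT5G62280 and AT4G33960 they did. With a single array left out, wild type 2, wild type 3, bio4-1 2 and bio4-1 3 in turn, 0, 1, 0 and 5 of the 15 kept their call by limma on arrays 2 and 3.

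The named genes among the 42 recurring falls were 9, of which 5 lie outside the 15 largest and were picked after their values were seen. UGT85A5, a glycosyltransferase gene, read 8.34, 7.79 and 8.01 in wild type and 5.12, 7.24 and 7.29 in bio4-1, and fell by 0.63 on arrays 2 and 3 with −3.22 on the array 1 pair. SFP2, of the sugar transporters, read 6.75, 6.84 and 6.87 in wild type and 5.59, 6.0 and 6.01 in bio4-1, and fell by 0.85 ± 0.11 (limma adjusted p = 0.0104). COR15B, scpl20 and FDH, here the formate dehydrogenase gene, fell by 0.76, 0.59 and 0.48, with −1.69, −1.23 and −1.31 on the array 1 pair. The groups did not overlap except for COR15B, against 6.85% of all genes with all bio4-1 arrays below all wild type arrays. The choice of recurring falls largely fixes this.

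**Figure D4:**
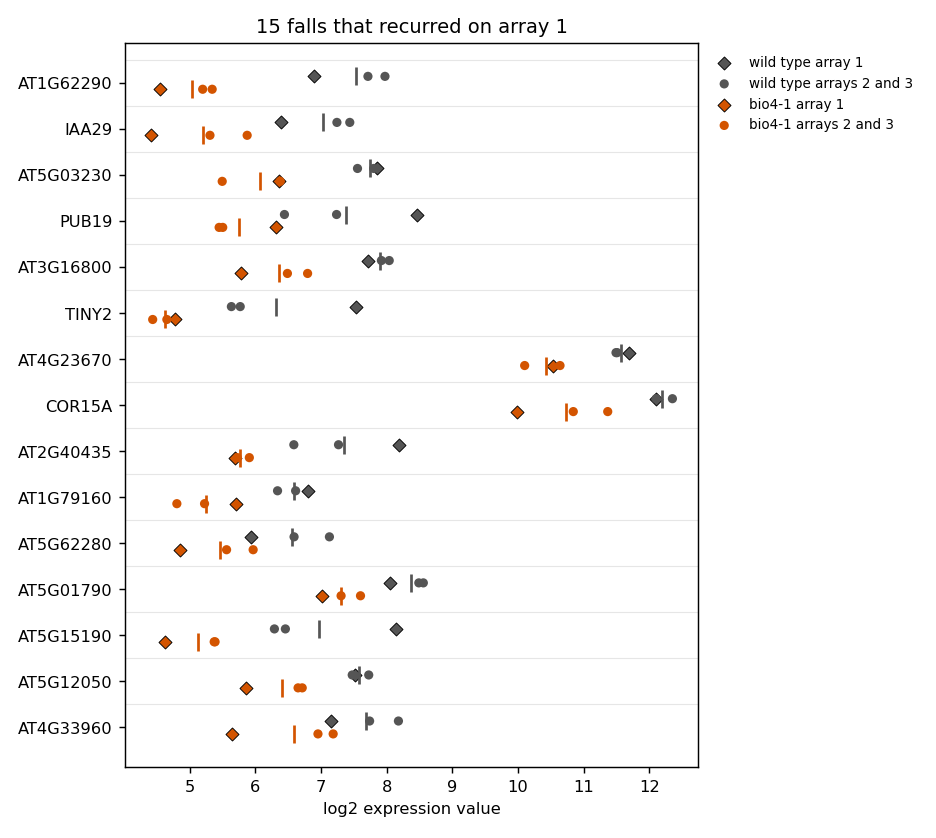
Log2 expression values (horizontal axis) of the 15 largest falls on arrays 2 and 3 that were also lower in bio4-1 by at least 1 on the array 1 pair, wild type in grey and bio4-1 in orange, with diamonds for array 1, circles for arrays 2 and 3 and ticks for the mean of 3. The orange points lie to the left of the grey ones in 13 of the 15, and in AT5G62280 and AT4G33960 the groups overlap.

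Changes that went the other way on the array 1 pair were mostly falls. For 25 of the 28 falls opposed by at least 1, wild type array 1 lay at least 1 below both other wild type arrays, against 472 of all 13356 genes. The choice of the 28 partly fixes this, because their array 1 pair had to oppose arrays 2 and 3. AT1G49500 read 4.60, 10.15 and 10.51 in wild type and 6.59, 8.04 and 8.43 in bio4-1, so that it fell by 2.1 ± 0.39 on arrays 2 and 3, against 1.99 on the array 1 pair. THI2.2, which encodes a thionin of defence, read 4.32, 7.38 and 7.93 in wild type and 5.41, 5.30 and 6.0 in bio4-1, with wild type array 1 the lowest of the 6. AT3G08030 read 5.03, 9.91 and 9.68 in wild type and 8.57, 7.64 and 8.49 in bio4-1. THI2.2 and AT3G08030 fell by 2.00 ± 0.30 and 1.73 ± 0.26 on arrays 2 and 3, with limma adjusted p of 0.0167 and 0.0169, and differed by 1.09 and 3.53 on the array 1 pair. AT4G37180 fell by 1.58 on arrays 2 and 3 and differed by 1.1 on the array 1 pair. Over all arrays these genes had limma adjusted p of 0.886 or more.

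The 8 rises opposed by at least 1 included COR27, a cold-regulated gene tied to the clock, which read 5.02, 6.87 and 7.28 in wild type and 3.43, 8.38 and 7.89 in bio4-1. It rose by 1.06 ± 0.21 on arrays 2 and 3 (limma adjusted p = 0.0373) and differed by −1.58 on the array 1 pair. AT4G33980 rose by 1.12 and differed by −2.67, AT5G25240 by 1.36 and −1.45, AT3G10120 by 0.95 and −2.36, and AT1G69760 by 0.79 and −1.53. In 6 of the 8, bio4-1 array 1 lay at least 1 below both other bio4-1 arrays, against 284 of all 13356 genes. The choice of the 8 partly fixes this.

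Gene lists were read by counts and medians, with few members named in the annotation. Over all genes 1.9% rose and 1.49% fell on arrays 2 and 3, so 0 or 1 call in a list of a few genes is near that share. Of 4 measured salicylic acid genes, 1 rose on arrays 2 and 3, GRX480, and the median difference was 0.67 there and 2.38 on the array 1 pair. WRKY53, a senescence and defence regulator, read 5.37, 7.46 and 6.89 in wild type and 9.70, 7.98 and 7.84 in bio4-1. Its groups did not overlap, but its difference of 0.73 on arrays 2 and 3 did not pass (limma adjusted p = 0.0795), and that on the array 1 pair was 4.34. SAG101, a partner of the immune regulator EDS1, differed by 0.60 on arrays 2 and 3 (limma adjusted p = 0.0558). BSMT1, a salicylate methyltransferase gene, read 2.98 to 3.11 on every array.

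Of 7 measured WRKY genes, 2 rose, WRKY47 and WRKY6, and 0 fell, with medians of 0.32 on arrays 2 and 3 and 0.64 on the array 1 pair. WRKY6, a factor of senescence and phosphate responses, read 4.78, 4.69 and 5.10 in wild type and 7.03, 6.31 and 6.25 in bio4-1, a rise of 1.39 ± 0.14 (limma adjusted p = 0.0054). Of the 2 measured immune receptor and kinase genes, BIK1 rose, and the bacterial elongation factor receptor gene EFR differed by 0.51 on arrays 2 and 3 (limma adjusted p = 0.109) and by 0.88 on the array 1 pair.

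The 7 measured jasmonate and ethylene defence genes did not move together: PDF1.4 rose, THI2.2 fell, and the median was 0.04 on arrays 2 and 3. The defensin gene PDF1.2 read 11.42, 8.18 and 8.74 in wild type and 7.55, 8.68 and 8.37 in bio4-1, a difference of 0.06 on arrays 2 and 3 and −3.86 on the array 1 pair. PDF1.2b differed by 0.04 and −3.12. Neither passed, and their difference on the array 1 pair came with wild type array 1 as the highest of the 6.

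Of the 6 measured cold, drought and abscisic acid genes, COR15A, COR15B and PUB19 fell on arrays 2 and 3 and 0 rose, with a median of −0.46. Among all genes, 1.49% fell and 1.9% rose there. COR15A and COR15B are direct neighbours on the chromosome, and how far their probe sets report each other's transcripts was not tested. All 6 were lower on the array 1 pair, which carries no test, by 1.69 to 4.12, with a median of −2.27. There 55.9% of all genes were lower, and 4.09% by at least 1. The linker histone gene HIS1-3 read 10.72, 7.89 and 7.34 in wild type and 6.60, 7.98 and 7.53 in bio4-1. LTI30, a dehydrin gene, read 9.35, 7.65 and 8.11 in wild type and 6.53, 9.14 and 7.91 in bio4-1. COR47, another dehydrin gene, read 12.12, 11.68 and 11.82 in wild type and 9.73, 11.82 and 11.34 in bio4-1. For these 3 genes arrays 2 and 3 differed by 0.14, 0.64 and −0.17 and did not pass, and the large differences were those of array 1.

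Among the cell wall genes, 3 of 16 expansins, which loosen the wall, fell on arrays 2 and 3 and 0 rose, against 1.49% and 1.9% of all genes. EXPA8 read 4.19, 9.90 and 10.13 in wild type and 8.91, 8.22 and 8.98 in bio4-1, so it fell by 1.42 ± 0.23 (limma adjusted p = 0.0205), against 4.72 on the array 1 pair. EXPB1 read 4.15, 7.08 and 7.27 in wild type and 6.42, 5.71 and 5.75 in bio4-1, and fell by 1.45 ± 0.10 against 2.27, and EXPA15 fell by 0.98 against 0.42. None of the 3 recurred, and for each of them wild type array 1 was the lowest wild type array. Of 10 xyloglucan endotransglucosylase/hydrolase genes, which cut and rejoin wall polymers, XTH32 fell: it read 8.44, 8.95 and 8.80 in wild type and 7.99, 8.12 and 8.12 in bio4-1, with −0.75 ± 0.10 on arrays 2 and 3 (limma adjusted p = 0.0125), −0.46 on the array 1 pair and no overlap. The lists' medians on arrays 2 and 3 were −0.17 and −0.01.

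Growth hormone genes gave 1 call a list. IAA29 fell among 8 auxin response genes, whose median was 0.05 on arrays 2 and 3, and EXO rose among 5 brassinosteroid and gibberellin genes, whose median was 0.39. The auxin conjugating gene GH3.3 read 6.78 on bio4-1 array 1 and 3.69 to 4.39 on the other 5 arrays, and did not pass. Among 3 phenylpropanoid genes, CCOAMT rose and HCT, an acyltransferase on the lignin route, fell by 0.67 on arrays 2 and 3 (limma adjusted p = 0.0211), with 1.2 on the array 1 pair.

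The 4 measured flavonoid and anthocyanin genes had opposite medians on arrays 2 and 3 and on the array 1 pair. DFR, the dihydroflavonol reductase of anthocyanin synthesis, read 11.94, 7.49 and 7.01 in wild type and 5.25, 10.37 and 8.55 in bio4-1. UF3GT, an anthocyanin glycosyltransferase gene, read 11.45, 6.88 and 6.36 in wild type and 6.13, 8.54 and 7.03 in bio4-1. Their differences were 2.2 and 1.17 on arrays 2 and 3 (limma adjusted p of 0.0663 and 0.264) and −6.70 and −5.31 on the array 1 pair. No member passed, and the list's medians were 0.83 and −3.87.

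NRT2.5, a high-affinity nitrate transporter gene, was the only measured gene of nitrate transport. It read 7.69, 5.80 and 5.39 in wild type and 7.89, 8.57 and 8.62 in bio4-1. It rose by 3.00 ± 0.44 on arrays 2 and 3 (limma adjusted p = 0.0157) and differed by 0.20 on the array 1 pair, and the groups did not overlap. Of 11 sugar and starch genes, cwINV6 and the glucose transporter gene SWEET1 rose, by 1.22 and 0.48, and 0 fell, with a median of 0.17 on arrays 2 and 3 and −1.03 on the array 1 pair. The sucrose transporter gene SWEET13 read 11.03, 9.41 and 9.22 in wild type and 8.63, 9.84 and 9.50 in bio4-1 and did not pass.

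None of the 3 measured genes of biotin-dependent carboxylases passed. MCCA, a subunit of 3-methylcrotonyl-CoA carboxylase, read 7.01, 7.17 and 7.51 in wild type and 6.95, 7.52 and 7.40 in bio4-1. MCCB, its other subunit, read 8.80, 8.96 and 9.01 in wild type and 8.68, 8.52 and 8.67 in bio4-1. MCCB was lower on every bio4-1 array, by a gap of 0.12, with a difference of −0.30 ± 0.10 over all arrays (limma adjusted p = 0.545) and −0.39 ± 0.10 on arrays 2 and 3 (limma adjusted p = 0.0873), while MCCA overlapped.

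The plastid gene accD, of acetyl-CoA carboxylase, read 8.15, 8.08 and 7.44 in wild type and 8.46, 7.27 and 7.98 in bio4-1, and overlapped. Of the 5 genes of branched-chain amino acid breakdown, IVD, the leucine route's isovaleryl-CoA dehydrogenase, and ETFALPHA, ETFBETA, ETFQO and D2HGDH, which pass its electrons on or feed them in, differed by −0.08 to 0.20 on arrays 2 and 3 and by −0.26 to −0.86 on the array 1 pair. None of the 5 passed, with limma adjusted p of 0.494 to 0.918 on arrays 2 and 3. Of the 2 fatty acid genes, the acyl-ACP thioesterase gene FaTA read 5.43, 5.79 and 5.71 in wild type and 5.12, 5.00 and 5.14 in bio4-1, and fell by 0.68 ± 0.10 on arrays 2 and 3 (limma adjusted p = 0.0157), with −0.31 on the array 1 pair and no overlap. FATB differed by 0.07 and did not pass.

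The measured photosynthesis genes gave 0 calls on arrays 2 and 3. The 4 Calvin cycle and photorespiration genes differed by −0.02 to 0.02 on arrays 2 and 3, and RCA, the activase of Rubisco, read 13.86, 13.80 and 13.78 in wild type and 13.78, 13.77 and 13.78 in bio4-1. The 7 light harvesting and photosystem genes differed by −0.30 to 0.23 there, with limma adjusted p of 0.185 or more. The 4 genes of heat shock and the unfolded protein response and the 5 of reactive oxygen responses gave 0 calls on arrays 2 and 3. On the array 1 pair, which carries no test, all 9 were higher in bio4-1, against 42.5% of all genes, with medians of 1.29 and 0.92. On arrays 2 and 3, 3 of the 4 and 2 of the 5 were higher, with medians of 0.11 and −0.02. Of 8 glutathione S-transferase genes, GSTU27 rose by 0.53 and GSTU18 fell by 0.63, with 0.25 and 1.48 on the array 1 pair.

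**Figure D5:**
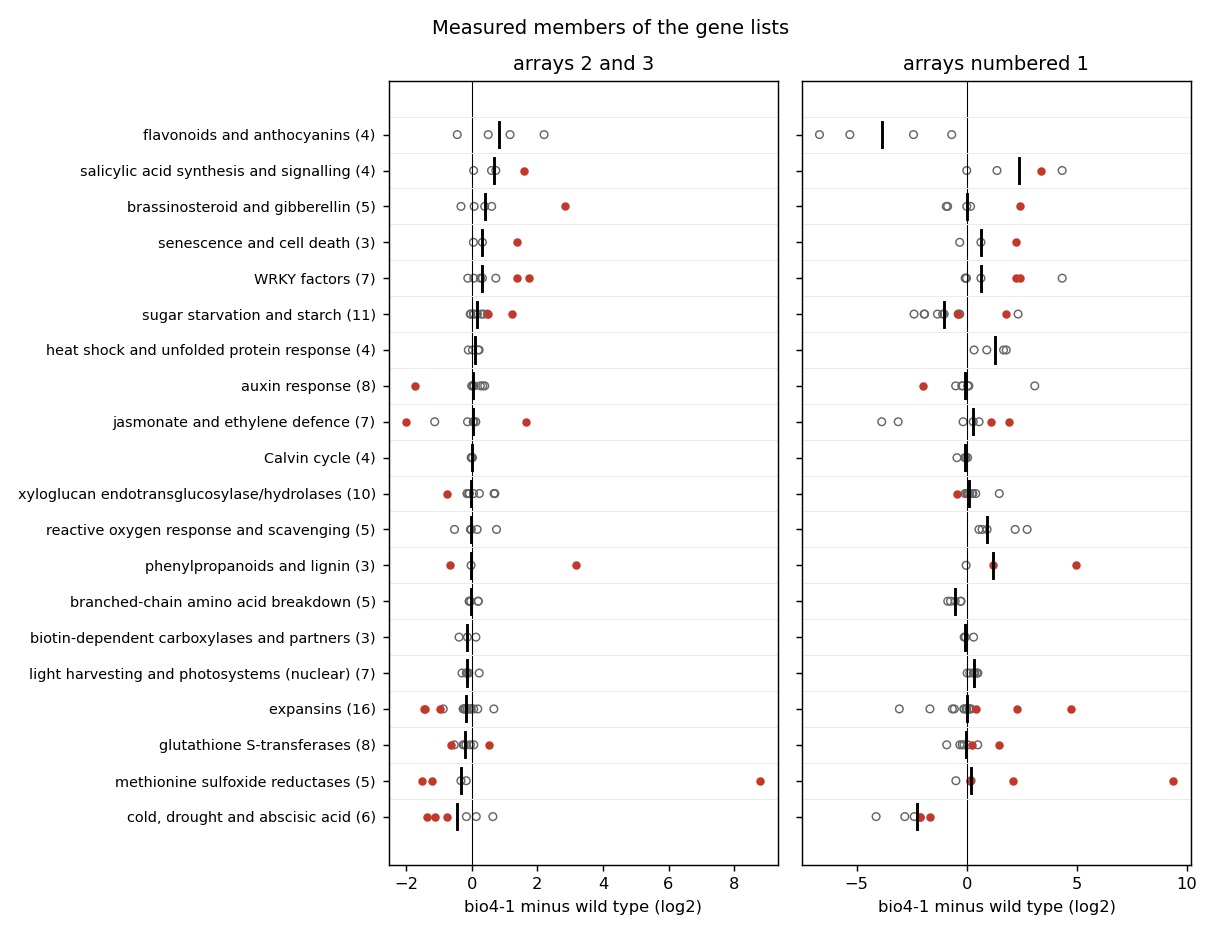
Differences between bio4-1 and wild type in log2 units (horizontal axes) for the measured members of each gene list with 3 or more of them (vertical axis, with the number measured), on arrays 2 and 3 (left) and on the array 1 pair (right). Filled points passed limma on arrays 2 and 3 and bars mark the median of a list: the flavonoid list lies at 0.83 on the left and at −3.87 on the right, and the horizontal scales differ.

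Among families formed by a shared stem of the symbol with at least 8 measured genes, 16 of 30 held a gene called on arrays 2 and 3. Of the 445 genes in them, 10 rose (2.25%) and 15 fell (3.37%), against 1.9% and 1.49% of all genes. The 47 UGT glycosyltransferase genes had 3 rises and 2 falls, the 26 CYP cytochrome P450 genes 2 rises and 0 falls, and the 29 SCPL serine carboxypeptidase-like genes 0 rises and 3 falls. The 22 TBL genes had 0 calls. Family medians on arrays 2 and 3 were −0.04 for UGT, −0.01 for CYP and −0.08 for SCPL.

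Recurring changes lay next to each other on the chromosome in a few places, by the order of genes in TAIR10.1. Over all measured genes, 5814 pairs were direct neighbours in that order. Of 134 placed recurring rises, 4 pairs were direct neighbours: AT1G26380 with AT1G26390, AT1G65500 with AT1G65510, AT2G46140 with AT2G46150, and AT5G59670 with AT5G59680. Of 42 falls, COR15B and COR15A were 1 such pair. Neighbouring family members can share sequence, so how far their probe sets report each other's transcripts was not tested.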

How the data were processed

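RNA was labelled for ATH1 arrays from 3 µg of total RNA, per the labels' protocols, from plants grown 28 to a tray in a 12 h day, at 23 °C in the light and 19 °C in the dark. The deposited values are log2 expression values made by the authors with RMA, per the submitters' processing notes, with settings not given in the sources used here. Nothing states separate growths, so p-values measure the spread between pooled samples, and the number of arrays limits precision.

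Of 22810 probe sets, 64 controls were left out. The probe annotation gave 1 gene to 13513, several to 503 and none to 8730 of the rest. A gene took its probe set with the highest mean over 9 arrays, which left 13356 genes, 1548 of them with a symbol, and 13286 matched RefSeq (TAIR10.1). limma 3.58.1 in R 4.3.3 fitted all 3 groups without a block, over 22746 probe sets with Benjamini-Hochberg adjustment, on all arrays and on arrays 2 and 3. The same fits were run on simulated arrays with independent noise. These held no shared shift of array 1 or other structure between arrays, so they cannot show how such structure affects the calls. The counts hold for that noise only. On the real arrays 2 and 3, a difference of 2.20 at DFR did not pass (limma adjusted p = 0.0663). Of 100 simulated 2-fold changes, 60 were called on all arrays and 100 on arrays 2 and 3, and of 100 4-fold changes 88 and 100. False calls among unchanged genes were 4 and 14. Tables and plots used Python 3.11.15, pandas 2.3.3 and matplotlib 3.10.9. Alternatives were a replicate block, an array 1 block, quantile normalization, median centring, a level of at least 6, a 2-group fit, an intensity trend, array weights and leaving out each array.

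The text names genes past the threshold on all arrays, the 15 largest rises and falls on arrays 2 and 3 that recurred by 1 or more on array 1, the 5 largest each way that opposed it, and up to 3 members of each list. The methionine sulfoxide reductase, carboxylase and branched-chain lists are named in full. Further list members, among them HIS1-3, LTI30, COR47, PDF1.2, GH3.3, HCT, SWEET13, BSMT1, EXLB1 and PRX52, were named outside these rules, with their values known. Of 1114 list names, 1043 had 1 locus, 151 had a probe set tied to 1 gene and are called measured, and 2 epidermis marker names were dropped because they name other genes here. The comparison, rules and lists were chosen with earlier results of these data known.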

Additional observations from a re-analysis of the deposited data

How the results depend on the processing

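Few list members had a probe set tied to 1 gene, and 2 arrays a group stand behind the calls on arrays 2 and 3. Array medians were 5.97 to 6.07, and 82 of the recurring rises started below 6. Over all arrays the counts of 5 higher and 0 lower genes became 5 and 1 with a replicate block, which kept 3 of the 5 genes, 26 and 7 with the arrays numbered 1 as a block, 1 and 0 at a mean level of at least 6, 2 and 0 in a 2-group fit, 291 and 221 with array weights, and 4 and 0 with quantile normalization, median centring and an intensity trend. Leaving out 1 array gave 1 to 5 higher and 0 lower genes. No label says that a replicate number marks a shared batch, though the arrays numbered 1 stood apart. Deviations of same-numbered wild type and bio4-1 arrays correlated at 0.218, −0.030 and 0.364, and wild type array 2 correlated best with bio4-1 array 3, at 0.194.

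On arrays 2 and 3, the 254 rises and 199 falls became 394 and 318 with the replicate block, 265 and 319 after median centring and 60 and 47 in the 2-group fit. Their recurring 137 and 42 became 84 and 38 at a mean level of at least 6 and 43 and 13 in the 2-group fit. Leaving out 1 array gave 4 to 60 rises, 3 to 47 falls, 4 to 43 recurring rises and 0 to 13 recurring falls. Other settings kept these counts within 1.5 times. Of the 15 largest recurring rises and 15 largest recurring falls, 11 and 8 were called in the 2-group fit, and 3 to 8 and 0 to 5 with 1 of the 4 wild type and water-grown bio4-1 arrays left out.

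Small differences changed sign. Over all arrays, accD turned to −0.02 with median centring and −0.31 with array weights. On arrays 2 and 3, median centring turned SBPASE to −0.03, BCAT4 to −0.01 and SAG29 to −0.0023, and quantile normalization turned RCA and HPR to 0.03 and BHLH101 to 0.01. With 1 array left out, values over all arrays ran from −1.79 to 0.54 for MSRB6, −0.05 to 0.23 for MCCA, −0.26 to 0.33 for accD, −0.16 to 0.32 for ETFQO, −0.08 to 0.18 for D2HGDH and −0.49 to 0.01 for MSRB3. On arrays 2 and 3 they ran from −0.01 to 0.05 for SBPASE, −0.03 to 0.0043 for HPR, −0.17 to 0.05 for AOP3, −0.07 to 0.15 for BCAT4, −0.05 to 0.30 for MCCA and −0.49 to 0.22 for accD. They ran from −0.14 to 0.07 for IVD, −0.21 to 0.05 for ETFBETA, −0.38 to 0.10 for PYE, −0.09 to 0.06 for BHLH101 and −0.04 to 0.14 for SAG29. The cause was not tested.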

Other observations

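Differences of the arrays numbered 1 alone carry no test and are given as values. On these arrays 615 genes were higher in bio4-1 by at least 1 and 546 were lower. Over all genes, wild type array 1 lay at least 1 above both other wild type arrays for 287 genes and at least 1 below them for 472, and bio4-1 array 1 lay at least 1 above its group's other arrays for 308 and below them for 284. EXLB1, an expansin-like gene, read 9.82 on wild type array 1 and 6.76 on bio4-1 array 1, and 7.39 to 7.95 on the other 4 arrays. PRX52, a peroxidase gene, read 5.92 on bio4-1 array 1 and 3.18 to 3.37 on the other 5. UGT78D2, a flavonoid glycosyltransferase gene, read 10.37 on wild type array 1 and 7.78 to 8.64 on the other 5.

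Probe sets without a single gene name, 9233 in all, are not in the counts of genes. On arrays 2 and 3, 284 of them were higher and 164 lower in bio4-1 by limma at an adjusted p under 0.05, and over all arrays 1 was higher and 1 lower. Over all 22746 probe sets, 541 were higher and 363 lower on arrays 2 and 3. The counts of genes therefore leave out 284 of the 541 raised and 164 of the 363 lowered probe sets.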
